A study of Mus musculus with 6 samples.

Results

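The calcium/calmodulin-dependent protein kinases of synaptic plasticity were examined in the mouse dorsal hippocampus after knockdown of the long noncoding RNA Snhg11. These 9 genes were taken by name, and comprise the CaMKII subunits Camk2a, Camk2b, Camk2d and Camk2g, the upstream kinases Camkk1 and Camkk2, the downstream kinases Camk4 and Camk1d, and the kinase-like gene Camkv. They are 9 of the 55401 genes counted, and all of them were among the 19969 genes with enough counts to be tested. Total RNA was sequenced from 6 wild-type (WT) littermates of the Ts65Dn line, a mouse model of Down syndrome, and the WT littermates do not carry its extra chromosome. The mice were 4 months old, and received 50 µg per hemisphere of an antisense oligonucleotide (ASO) in the dorsal dentate gyrus. Dorsal hippocampi were taken 3 days later. The Control-ASO group (n = 3) received a scrambled ASO and the Snhg11-ASO group (n = 3) an ASO against Snhg11, so both groups carry surgery and a chemically modified oligonucleotide. The ASO was injected in the dentate gyrus while RNA came from the whole dorsal hippocampus, so injected and uninjected regions were read together. The sample labels give no sex, and the study describes the injected mice whose hippocampal RNA was read as male. Ddx3y, a Y-linked gene, lay between 62.5 and 94.7 on the counts-per-million (CPM) scale in all 6 samples, and Xist, which is transcribed from the inactive X chromosome, was at most 0.182 per plain library total.

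When calcium enters a neuron through NMDA receptors or voltage-gated channels, it binds calmodulin, and calcium-loaded calmodulin in turn opens the autoinhibited catalytic domain of these kinases. CaMKII is a ring-shaped holoenzyme built from several subunit types. Once activated, its subunits phosphorylate a threonine on their neighbours, which keeps the enzyme active after calcium has fallen. This switch is required for long-term potentiation at CA1 synapses of the hippocampus. CaMKK phosphorylates and activates CaMKI and CaMKIV, and CaMKIV is a nuclear kinase of the transcription factor CREB. CaMKV has a kinase fold without catalytic activity.

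The switch is what the CaMKII subunits share, and its sequence also shows how far the reads could tell them apart. The coding sequence around the autophosphorylated threonine is printed for Camk2b, Camk2d and Camk2g from the GENCODE M21 transcripts on GRCm38, 5′ to 3′, as 105 bases that run on into the segment that binds calmodulin. Capitals mark the threonine codon.
Camk2b: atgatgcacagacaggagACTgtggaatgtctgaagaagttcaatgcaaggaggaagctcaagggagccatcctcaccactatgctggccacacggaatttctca
Camk2d: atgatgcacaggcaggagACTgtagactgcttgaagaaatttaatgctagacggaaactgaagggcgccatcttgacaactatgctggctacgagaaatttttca
Camk2g: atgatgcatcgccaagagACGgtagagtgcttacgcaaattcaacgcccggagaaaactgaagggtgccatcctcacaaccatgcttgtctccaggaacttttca

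Each of these windows joins the end of exon 11 to the start of exon 12 of its transcript. For Camk2b the exon 11 piece lies at chr11:5988955-5989017 and the exon 12 piece at chr11:5988102-5988143, both on the minus strand. In Camk2d they lie at chr3:126797723-126797785 and chr3:126798238-126798279 on the plus strand, and in Camk2g at chr14:20760397-20760459 and chr14:20760145-20760186 on the minus strand. Over the 105 bases Camk2a and Camk2b, the most alike pair, were identical at 92 positions (87.6%) with a longest identical run of 32 bases. Camk2b and Camk2d were identical at 84 positions (80.0%), Camk2d and Camk2g at 77 (73.3%), and Camk2b and Camk2g at 75 (71.4%). The longest identical run in each of these last 3 pairs was 11 bases, and the runs of all pairs were shorter than the 50-base reads. Across all annotated transcripts of the 9 genes, no stretch of 50 bases was shared between any of them. Stretches of that length shared with a gene outside the family made up 0.293% of those of Camk2a, 0.159% of those of Camk2b, 0.71% of those of Camk4, and 0% of those of each of the other 6 genes.

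The genes differ in genomic size. Camk1d (ENSMUSG00000039145, chr2:5293457-5714515, minus strand) spans 421 kb, Camk4 (ENSMUSG00000038128, chr18:32934931-33191228, plus strand) 256 kb and Camk2d (ENSMUSG00000053819, chr3:126596302-126846326, plus strand) 250.0 kb. Camk2b (ENSMUSG00000057897, chr11:5969644-6066362, minus strand), Camk2a (ENSMUSG00000024617, chr18:60925618-60988152, plus strand), Camk2g (ENSMUSG00000021820, chr14:20734875-20794088, minus strand) and Camkk2 (ENSMUSG00000029471, chr5:122731170-122779409, minus strand) span 96.7, 62.5, 59.2 and 48.2 kb. Camkk1 (ENSMUSG00000020785, chr11:73019008-73042073, plus strand) and Camkv (ENSMUSG00000032936, chr9:107935674-107949691, plus strand) are the most compact, at 23.1 and 14.0 kb. None of the 9 shares exonic bases with another gene on its own strand. Camk4 shares 72 exonic bases (2.21%) with the antisense gene 2310026I22Rik, and between 0 and 26 read pairs per sample fell on the opposite strand of any of the 9 genes.

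The read pairs assigned to genes ranged from 28951250 to 43997537 per sample. Of these, the 9 genes took between 80914 and 118756 (0.240% to 0.321%), with a lowest count for 1 gene in 1 sample of 1262 and a highest of 45828. Values are CPM of the library total scaled by its TMM factor, and as log2 fold changes of Snhg11-ASO against Control-ASO with their standard error (SE). The 3 values of a group are in the order of replicates 1, 2 and 3. Prox1, which marks granule cells of the dentate gyrus, lay between 82.1 and 167 CPM and Slc17a7, which marks excitatory neurons, between 614 and 748. Snhg11 itself was counted at 551, 436 and 209 CPM in the Control-ASO mice, against 139, 65.4 and 69.4 CPM in the Snhg11-ASO mice, which is 22.9% of the Control-ASO mean (log2 fold change -2.13, adjusted p = 0.395 in edgeR and 6.25e-05 in DESeq2). Snhg11-ASO replicate 1 stood apart, with Spearman correlations across genes of 0.955 to 0.959 with the other samples, against 0.979 to 0.991 among those. Fold changes of the CaM kinase genes and medians of the lists of related genes that moved by over 1.5 times without that sample are also given without it. Medians of marker lists were not computed without it and are given with all samples only. For several other genes the values by sample or their range are given.

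None of the 9 CaM kinase genes passed an adjusted p of 0.05 in the comparison of Snhg11-ASO with Control-ASO, in either edgeR's quasi-likelihood test or DESeq2. In the same comparison 0% of all tested genes passed in edgeR and 1.29% in DESeq2. By fitted fold change 7 of the 9 were lower in Snhg11-ASO and 2 higher, with a median log2 fold change of -0.07 against 0.01 over all genes tested. Leaving out 1 sample moved that median between -0.02, without Control-ASO replicate 2, and -0.15, without Snhg11-ASO replicate 2, and it was -0.13 without Control-ASO replicate 3. Camk2g alone had an unadjusted p under 0.05, as a lower gene, where 4.43% of all genes tested had such a p and were lower and 3.68% were higher. The groups did not overlap for Camk2g and Camk4, both lower, where 7.70% of all genes tested were lower without overlap and 7.73% higher. In 3 against 3 samples a two-sided exact permutation test cannot give a p below 0.1. In these tissue samples, fewer cells of a type and less RNA per cell cannot be told apart.

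**Figure D1:**
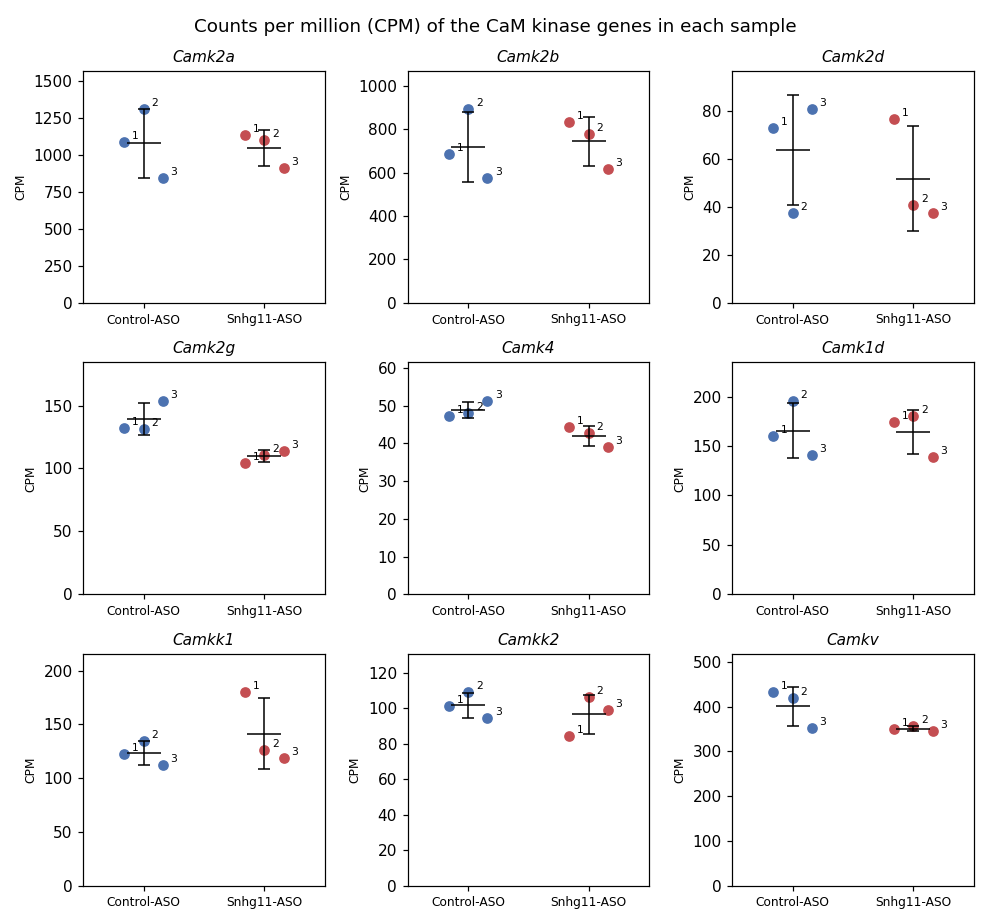
CPM of each of the 9 CaM kinase genes (vertical axes, each from 0) in the 3 Control-ASO samples (blue) and the 3 Snhg11-ASO samples (red), numbered by replicate, with the group mean and SD in black. The groups are separate for Camk2g (132 to 154 against 105 to 114 CPM) and for Camk4, and overlap for the other 7.

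Among the CaMKII subunits the most abundant, Camk2a, did not separate the groups. Camk2a encodes the alpha subunit of excitatory forebrain neurons, whose mRNA is also carried into dendrites. It was counted at 1089, 1306 and 841 CPM in the Control-ASO mice, against 1136, 1097 and 909 CPM in the Snhg11-ASO mice. All Snhg11-ASO values lay inside the Control-ASO range. The means were 1079 ± 232.5 and 1047 ± 121 CPM (SD, n = 3 each), with a log2 fold change of -0.04 (SE 0.18, 95% interval -0.47 to 0.38, adjusted p = 0.963 in edgeR), or -0.10 without Snhg11-ASO replicate 1. Given the spread between mice, any Camk2a difference within that interval remained compatible with these values.

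Camk2b, the beta subunit, which ties the holoenzyme to actin in spines, showed the same picture. Its CPM were 687, 892 and 576 in the Control-ASO mice, against 835, 781 and 619 in the Snhg11-ASO mice. The lowest and the highest value both belonged to Control-ASO. The log2 fold change was 0.05 (SE 0.19, 95% interval -0.40 to 0.50, adjusted p = 0.957 in edgeR), and it was -0.04 without Snhg11-ASO replicate 1. The ratio of Camk2b to Camk2a CPM was 0.631, 0.684 and 0.685 in the Control-ASO mice, against 0.735, 0.712 and 0.681 in the Snhg11-ASO mice, with means of 0.666 ± 0.031 and 0.710 ± 0.0272 (SD, n = 3 each, two-sided exact permutation test, p = 0.3). Thus the ratio stayed between 0.631 and 0.735 while Camk2b itself ran from 576 to 892 CPM.

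Camk2g, the gamma subunit, which is known to carry calmodulin from the membrane to the nucleus, was the member with the smallest p. The Control-ASO mice had 132, 132 and 154 CPM and the Snhg11-ASO mice 105, 111 and 114 CPM. The highest Snhg11-ASO value lay below the lowest Control-ASO value. The mean was 139 ± 12.7 CPM in Control-ASO and 109.9 ± 4.82 CPM in Snhg11-ASO (SD, n = 3 each), which is 79.0% of the Control-ASO mean. On the log2 scale the difference was -0.34 (SE 0.10, 95% interval -0.57 to -0.11, unadjusted p = 0.00934, adjusted p = 0.498 in edgeR and 0.144 in DESeq2). The two-sided exact permutation test gave p = 0.1, the smallest possible here. Without Snhg11-ASO replicate 1 the log2 fold change was -0.31.

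Camk2d, the delta subunit and the main CaMKII gene of the heart, was the least abundant of the 4 subunits and the most variable of the 9 genes. Its CPM were 73.25, 37.5 and 80.8 in the Control-ASO mice, against 77.0, 41.1 and 37.5 in the Snhg11-ASO mice. The samples fell near 2 levels, with 3 samples at 73.25 to 80.8 CPM and 3 at 37.5 to 41.1 CPM, and each group held samples of both. The coefficient of variation was 36.2% in Control-ASO and 42.1% in Snhg11-ASO. Consequently the log2 fold change of -0.30 (SE 0.37, 95% interval -1.17 to 0.56, adjusted p = 0.848 in edgeR) did not exceed the spread, and it moved to -0.70 without Snhg11-ASO replicate 1, to -0.57 without Control-ASO replicate 2, and to -0.10 without Control-ASO replicate 3.

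The same division of samples appeared in 6 marker genes of the choroid plexus, the epithelium that adjoins the hippocampus in the ventricle. Their summed level was 1891, 36.2 and 1227 CPM in the Control-ASO mice, against 1294, 122 and 66.0 CPM in the Snhg11-ASO mice. Ttr, the transthyretin gene, was the largest part in each sample but Control-ASO replicate 2, where it was 12.9 of the 36.2 CPM. The 3 samples with Camk2d at 73.25 CPM or more were the 3 with marker sums of 1227 CPM or more. All 6 choroid plexus markers were lower in Snhg11-ASO, with a median log2 fold change of -0.93 and groups that overlapped for each. None of the 6 was at 0 in any sample. The division was not particular to the choroid plexus. Other marker sums split the same samples the opposite way, with these 3 lowest. They were 1433 to 1753 against 2537 to 3278 CPM for oligodendrocytes and 116 to 248 against 311 to 342 CPM for microglia. Sums for astrocytes, excitatory neurons, and CA1 and CA3 pyramidal neurons divided likewise. The part of any of these markers in the Camk2d values was not tested.

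**Figure D2:**
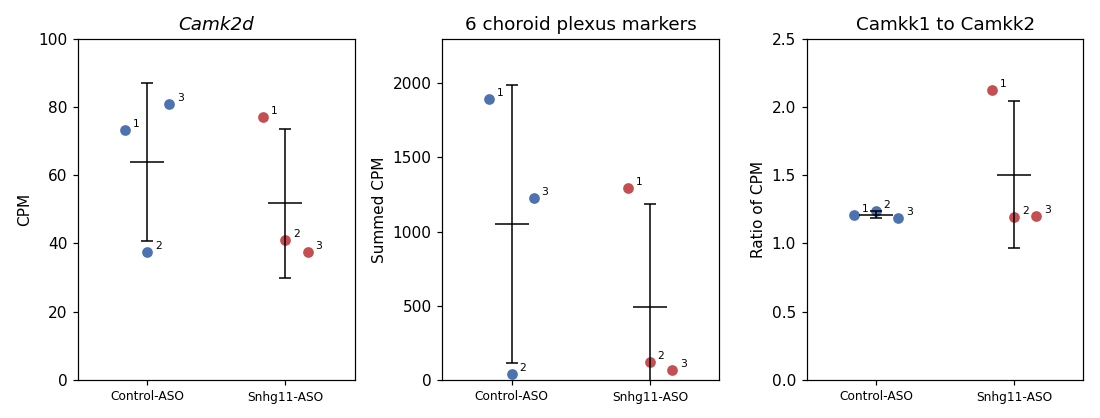
CPM of Camk2d (left), the summed CPM of 6 choroid plexus markers (middle) and the ratio of Camkk1 to Camkk2 CPM (right) in each Control-ASO (blue) and Snhg11-ASO (red) sample, numbered by replicate, with the mean and SD in black. Camk2d was at 73.25 CPM or more in the same 3 samples in which the markers summed to 1227 CPM or more, and the ratio was 2.12 in Snhg11-ASO replicate 1 against 1.18 to 1.24 in the other 5 samples. The lower end of the marker SD bar for Snhg11-ASO falls under 0 and is not drawn.

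The composition of CaMKII was then compared per length, as each subunit's share of the summed counts per kilobase of merged exon. Camk2a made up 58.1% ± 2.33 in Control-ASO and 58.1% ± 0.326 in Snhg11-ASO (SD, n = 3 each, two-sided exact permutation test, p = 1). The Camk2b share was 30.7%, 33.2% and 31.0% in the Control-ASO mice and 34.7%, 34.0% and 32.4% in the Snhg11-ASO mice, a difference of 2.09 percentage points (p = 0.2 in the same exact permutation test). For Camk2g the shares were 8.41%, 6.97% and 11.8% in the Control-ASO mice and 6.21%, 6.88% and 8.53% in the Snhg11-ASO mice, a difference of -1.86 points (exact permutation p = 0.4). Camk2d contributed 0.566% to 1.77% of the total. These shares depend on the length used. In Control-ASO, CPM per kb of merged exon were 144 for Camk2a, 78.7 for Camk2b, 21.7 for Camk2g and 2.84 for Camk2d. Per kb of the longest annotated transcript they were 217, 174, 37.6 and 11.6. All 4 shares overlapped between the groups. Set against the Control-ASO sample of the same number, the Camk2g share was lower and the Camk2b share higher in 3 of 3 Snhg11-ASO samples, which was not tested. Control-ASO replicate 3 had the lowest Camk2a and the highest Camk2g share of the 6 samples. Leaving it out brought the difference in the Camk2g share from -1.86 to -0.485 points, whereas it was -2.9 points without Control-ASO replicate 2, and the other 4 samples left out in turn gave -2.52 to -1.36 points.

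**Figure D3:**
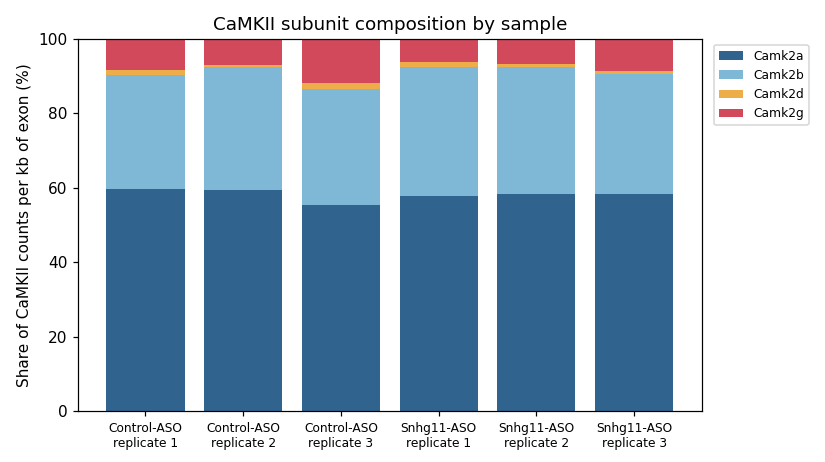
Share of each CaMKII subunit gene in the summed CaMKII counts per kb of merged exon (vertical axis, percent) in each of the 6 samples. Camk2a took 55.4% to 59.5% and Camk2b 30.7% to 34.7% in every sample, and Control-ASO replicate 3 had the largest Camk2g share, 11.8%.

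The upstream kinases Camkk1 and Camkk2, which encode CaMKK alpha and beta, differed between the groups by less than their spread. Camkk1 was counted at 123, 135 and 112 CPM in the Control-ASO mice, against 179.8, 126.5 and 118.5 CPM in the Snhg11-ASO mice. Its log2 fold change was 0.20 (SE 0.17, 95% interval -0.20 to 0.60, adjusted p = 0.780 in edgeR) with all samples and -0.01 without Snhg11-ASO replicate 1. Thus the higher mean of Camkk1 in Snhg11-ASO came from that sample. Camkk2, which also activates the energy sensor AMPK, was counted at 101, 109 and 94.8 CPM in the Control-ASO mice, against 84.7, 106 and 98.9 CPM in the Snhg11-ASO mice, with a log2 fold change of -0.07 (SE 0.11, 95% interval -0.34 to 0.19, adjusted p = 0.878 in edgeR) and of 0.01 without Snhg11-ASO replicate 1. The same sample thus held the highest Camkk1 and the lowest Camkk2 of all 6. The ratio of Camkk1 to Camkk2 CPM was 1.21, 1.24 and 1.18 in the Control-ASO mice, against 2.12, 1.19 and 1.2 in the Snhg11-ASO mice (two-sided exact permutation test, p = 0.8), so 5 of the 6 mice lay within a narrow range.

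Camk4, which encodes the nuclear kinase CaMKIV, was the other member whose groups did not overlap. It was counted at 47.2, 48.1 and 51.3 CPM in the Control-ASO mice, against 44.35, 42.6 and 39.1 CPM in the Snhg11-ASO mice. The gap between the groups, from 44.35 to 47.2 CPM, was small beside that of Camk2g. The mean was 48.8 ± 2.15 CPM in Control-ASO and 42.0 ± 2.69 CPM in Snhg11-ASO (SD, n = 3 each), 86.0% of the Control-ASO mean. The log2 fold change was -0.22 (SE 0.09, 95% interval -0.44 to 0.00, unadjusted p = 0.0538, adjusted p = 0.618 in edgeR and 0.508 in DESeq2), and the exact permutation test gave p = 0.1. When each sample's trend with genomic span was removed, the log2 fold change of Camk4, one of the longest of the 9 genes, was -0.10.

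Camk1d, a CaMKI gene of neurons that acts downstream of CaMKK, was level between the groups. Its CPM were 160, 196 and 141 in the Control-ASO mice, against 174, 180.4 and 139 in the Snhg11-ASO mice. These ranges almost coincide. The log2 fold change was -0.01 (SE 0.15, 95% interval -0.38 to 0.36, adjusted p = 0.990 in edgeR), -0.05 without Snhg11-ASO replicate 1, and 0.17 once each sample's span trend was removed. The ratio of Camk4 to Camk1d was 0.302 ± 0.0595 in Control-ASO and 0.258 ± 0.0224 in Snhg11-ASO (SD, n = 3 each, two-sided exact permutation test, p = 0.3).

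Camkv, whose pseudokinase product helps to maintain dendritic spines, was counted at 432, 419.7 and 351 CPM in the Control-ASO mice, against 349, 356 and 345 CPM in the Snhg11-ASO mice. Control-ASO replicate 3 lay among the Snhg11-ASO samples, so the groups overlapped, although each Snhg11-ASO sample was below the Control-ASO sample of the same number. The mean was 401 ± 43.5 CPM in Control-ASO and 350.3 ± 5.61 CPM in Snhg11-ASO (SD, n = 3 each), 87.4% of the Control-ASO mean. The log2 fold change of -0.19 (SE 0.11, 95% interval -0.44 to 0.05, adjusted p = 0.682 in edgeR) did not pass the test. The coefficient of variation of Camkv was 10.8% in Control-ASO and 1.6% in Snhg11-ASO.

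**Figure D4:**
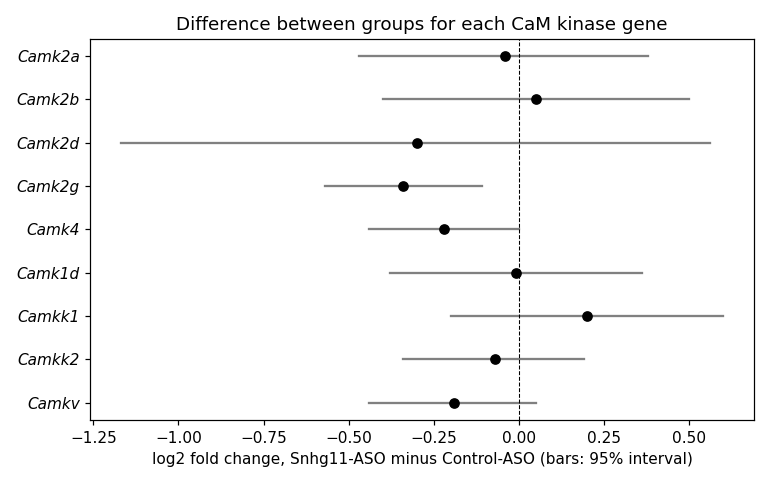
Log2 fold change of each CaM kinase gene between Snhg11-ASO and Control-ASO (horizontal axis, points) with its 95% interval (bars) from edgeR's quasi-likelihood fit. The interval lies wholly below 0 for Camk2g (-0.57 to -0.11) before any adjustment for the number of genes, ends at 0.00 for Camk4 and is widest for Camk2d (-1.17 to 0.56).

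Some but not all neuronal marker lists were also lower in Snhg11-ASO beside Camk2g, Camk4 and Camkv. All 6 markers of inhibitory neurons had lower fitted values, with a median log2 fold change of -0.28, and their summed level was 411 to 453 CPM in Control-ASO and 340.2 to 388 CPM in Snhg11-ASO, without overlap. All 6 general neuronal markers were lower too, with a median of -0.20, and their sums overlapped at 4201 to 4557 CPM in Control-ASO and 3514 to 4338 CPM in Snhg11-ASO. Of 6 neocortical markers, chosen after the data were seen, all 6 were lower, with a median of -0.39. Their sums were 116, 113 and 163 CPM in the Control-ASO mice, against 111, 94.97 and 107 CPM in the Snhg11-ASO mice. Of 6 thalamic markers, also chosen then, 2 were lower and 4 higher, with a median of 0.21. Their sums were 50.4 to 79.7 CPM in Control-ASO and 70.2 to 74.2 CPM in Snhg11-ASO. Other neuronal lists were not lower by their median. The 4 markers of excitatory neurons had a median of 0.04 and those of granule cells 0.05. For CA1 pyramidal neurons the median was 0.12, with 2 of 4 markers higher, and for CA3 pyramidal neurons 0.23, with 3 of 4 higher. No marker of these lists was at 0 in any sample, and their part in the values of Camk2g, Camk4 and Camkv was not tested.

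Ordered by level per length in Control-ASO, as CPM per kb of merged exon, Camk2a stood first at 144 ± 31.1 (SD, n = 3), followed by Camkv at 107 ± 11.5 and Camk2b at 78.7 ± 17.6. The control ranges of these neighbours in the order overlapped. Camkk1 at 33.1 ± 3.03, Camk1d at 22.3 ± 3.75 and Camk2g at 21.7 ± 1.98 formed a middle group, in which the ranges of Camk1d and Camk2g overlapped. Camk4 at 15.0 ± 0.66, Camkk2 at 9.32 ± 0.649 and Camk2d at 2.84 ± 1.03 were lowest, each separate from the next. Camk2a was thus 50.9-fold above Camk2d per kb of merged exon. Within samples each gene lay above the next in 6 of 6, except Camk1d over Camk2g, which held in 5 of 6. The order and the size of that fold depend on the length used. Camk2d has 22493 bases of merged exon, against 5524 in its longest annotated transcript. Per kb of the longest annotated transcript, Camk2b at 174 passed Camkv at 122, Camk2g at 37.6 passed Camkk1 at 33.2, and Camkk2 at 20.9 passed Camk4 at 18.0, whereas Camk2a at 217 remained first and Camk2d at 11.6 last.

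The genes whose profile over the 6 samples was most like that of Camk2a and Camk4 were sought among 7764 genes of sufficient level, by the root mean square difference of log2 CPM after centring each gene. For Camk2a they were Ptk2b at 0.0313, Plxna4 at 0.0623 and Camk2b at 0.0679, against a deviation of 0.210 of Camk2a from its own mean. Ptk2b encodes the calcium-activated tyrosine kinase Pyk2, and was counted at 534, 669 and 422 CPM in the Control-ASO mice, against 559.5, 563 and 441 CPM in the Snhg11-ASO mice. Like Camk2a, it was highest in Control-ASO replicate 2 and lowest in Control-ASO replicate 3. For Camk4 they were Nmnat2 at 0.0282, Relch at 0.0294 and Rap1gap at 0.0305, against a deviation of 0.127 of Camk4. Nmnat2, an enzyme of NAD synthesis that maintains axons, was counted at 138, 137 and 143 CPM in the Control-ASO mice, against 125.4, 125 and 109 CPM in the Snhg11-ASO mice.

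The rest of the pathway was read from 6 lists of related genes, none of which held a gene with an adjusted p under 0.05 in edgeR. For the counts below, 4.43% of all genes tested were lower and 3.68% higher at an unadjusted p under 0.05. Of 17 other CaM kinase family genes, 0 were lower and 1 was higher at an unadjusted p under 0.05, with a median log2 fold change of 0.04, or 0.00 without Snhg11-ASO replicate 1 and 0.12 without replicate 3. That gene was Dapk2, a calmodulin-regulated death-associated kinase, with a log2 fold change of 0.94 at 0.442 to 0.594 CPM in Control-ASO and 0.618 to 1.32 CPM in Snhg11-ASO. It was followed by Mylk, the myosin light chain kinase, at 0.44 and by Pnck, a CaMKI gene, at -0.48, neither past that p. Of 10 calmodulins and calmodulin reservoirs that could be tested, 0 passed the unadjusted p in either direction and 9 were lower, with a median of -0.12 (-0.05 without Snhg11-ASO replicate 1), and Basp1 at -0.19, Pcp4 at -0.33 and Gap43 at -0.36 had the smallest p. Calcineurin, the phosphatase that opposes these kinases, and its regulators had 0 of 16 past the unadjusted p and a median of 0.07, or -0.00 without Snhg11-ASO replicate 1. Its smallest p belonged to Nfatc1 at 0.36, a transcription factor that calcineurin activates, Akap5 at -0.23, its anchoring protein, and Ppp3r2 at -0.89, a regulatory subunit counted at 0.446 to 2.21 CPM.

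Among 32 inhibitors, phosphatases, partners and substrates of CaMKII, 2 were lower and 1 higher at an unadjusted p under 0.05, with a median of -0.04, or 0.00 without Snhg11-ASO replicate 1. Stx1a, the presynaptic syntaxin, was counted at 39.4, 35.8 and 50.05 CPM in the Control-ASO mice, against 30.7, 30.8 and 30.9 CPM in the Snhg11-ASO mice (log2 fold change -0.44, unadjusted p = 0.0160, adjusted p = 0.535 in edgeR). Lrrc7, or densin, which binds CaMKII in the postsynaptic density, was counted at 306, 305.5 and 258 CPM in the Control-ASO mice, against 240.4, 248 and 210.0 CPM in the Snhg11-ASO mice (-0.32, adjusted p = 0.561 in edgeR). Arc, an activity-induced gene whose product binds inactive CaMKII beta, was higher at 0.71 (adjusted p = 0.532 in edgeR), with 51.4 to 84.4 CPM in Control-ASO and 99.2 to 144 CPM in Snhg11-ASO. The groups did not overlap for these 3 genes, where 7.70% of all genes tested were lower without overlap and 7.73% higher. Among 21 targets of CaMKK and CaMKIV, 1 was lower and 0 were higher, with a median of 0.01, or -0.01 without Snhg11-ASO replicate 1. The lower gene was Mef2c, a transcription factor of neurons and microglia, at 171, 163.5 and 312 CPM in the Control-ASO mice, against 105, 140.5 and 144 CPM in the Snhg11-ASO mice (-0.73, adjusted p = 0.574 in edgeR). Crem at 0.29 and Atf1 at 0.57, both of the CREB family, followed it. Atf1 was counted at 6.80, 5.89 and 6.17 CPM in the Control-ASO mice, against 14.2, 6.25 and 7.58 CPM in the Snhg11-ASO mice, so its difference lay mostly in Snhg11-ASO replicate 1.

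The list that stood furthest from 0 was that of 22 CREB-responsive genes, which lie downstream of CaMKIV. This list, like the others, was written with earlier results of these data known, so its counts and median are a description. Of the 22 genes, 2 were lower and 7 higher at an unadjusted p under 0.05, against 4.43% and 3.68% of all genes tested. Without overlap, 2 were lower and 8 higher, against 7.70% and 7.73% of all genes tested. The median log2 fold change was 0.60, or 0.20 without Snhg11-ASO replicate 1. Fos, an immediate early gene, was counted at 8.91, 8.68 and 8.22 CPM in the Control-ASO mice, against 45.9, 16.2 and 21.9 CPM in the Snhg11-ASO mice (1.70, SE 0.37, adjusted p = 0.428 in edgeR). It was the 1 gene of the 6 lists that passed in DESeq2 (adjusted p = 0.00112), which gave no adjusted p to Fosb and Dusp1 of this list. Egr1, also immediate early, was at 33.7 to 35.9 and 42.9 to 65.2 CPM (0.56, adjusted p = 0.527 in edgeR). Ppargc1a, a coactivator of mitochondrial genes, went the other way, at 42.9 to 51.1 and 31.2 to 38.2 CPM (-0.43, adjusted p = 0.492 in edgeR). Arc belongs to this list as well as to that of CaMKII partners.

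**Figure D5:**
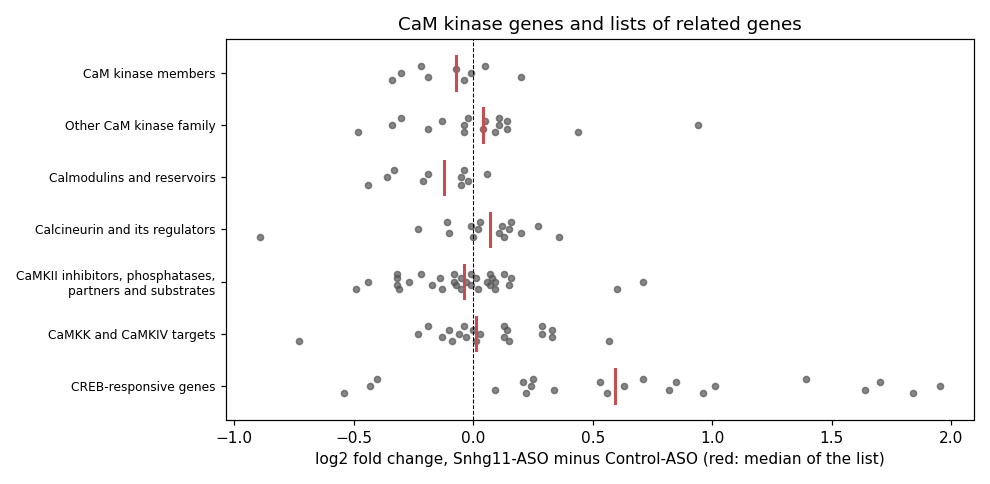
Log2 fold changes between Snhg11-ASO and Control-ASO (horizontal axis) of the 9 CaM kinase genes and of the genes of 6 related lists (rows, 1 point a gene), with the median of each list in red. The CaM kinase genes lie between -0.34 and 0.20 around a median of -0.07, and the CREB-responsive genes between -0.54 and 1.95 around a median of 0.60.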

How the data were processed

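RNA-seq libraries were made from ribosomal RNA-depleted total RNA with a stranded kit and sequenced as paired 50-base reads. The authors aligned the reads to GRCm38 (mm10) with STAR 2.5.2a, per the labels, and deposited raw counts of read pairs per gene for each sample. The methods name Rsubread for counting, whereas the deposited counts are in STAR's own format, which leaves out pairs mapped to several places or genes. The summary lines that name no gene (unmapped, multimapping, outside genes, ambiguous) held 43.5% to 51.4% of pairs and stayed out of library sizes. Of all pairs, 4.62% to 6.10% mapped to several places and 0.600% to 0.761% were ambiguous.

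Counts of the reverse strand were used, which held 96.2% to 96.8% of stranded counts. Symbols, exons and transcripts came from GENCODE M21, which matched 55141 of 55401 genes. Genes were kept by filterByExpr (minimum count 10), scaled by TMM (0.982 to 1.02) and compared with edgeR 4.0.16's quasi-likelihood test (R 4.3.3) with Benjamini-Hochberg adjustment at 0.05 over all 19969 genes. An SE is the fold change over the root of its F. Means and SDs are of CPM. Ratios and shares were compared with two-sided exact permutation tests. The series describes its samples as separate hippocampi. Litter, day and cage were not stated. The methods say that a Snhg11-ASO sample, not named there, was left out as an outlier, and all 6 samples were used here. Scripts were tested on simulated data.

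The CaM kinase genes were taken by name, and they and the lists were chosen with earlier results of these data known. From each list the 3 genes with the smallest unadjusted p were named, and 3 genes each like Camk2a and Camk4 (mean log2 CPM of at least 4, prior count 2). Names outside that rule (Ttr, Prox1, Slc17a7, Map2, Nefl, Rbfox3, Snap25, Syt1, Tubb3, Ddx3y and Xist) served as markers. Fosb and Dusp1 are named for their missing adjusted p in DESeq2. Alternatives were DESeq2 1.42.0, edgeR with size factors from DESeq2 or from the upper quartile, both strands counted together, no filter or a mean of 10 counts, the replicate number as a block, removal of each sample's loess trend (span 0.5) with genomic span, other lengths for shares, and leaving out each sample. DESeq2 without each Snhg11-ASO sample, and the thalamic and neocortical markers, were added after seeing the data.

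Samples that share a replicate number deviated together from the means of their groups (correlations of 0.297, 0.179 and 0.103, each above 0.1), so the numbers may pair the samples. However, Control-ASO replicate 2 correlated at 0.188 with Snhg11-ASO replicate 3, above its 0.179 with Snhg11-ASO replicate 2. These values therefore do not settle whether the numbers mark pairs. The tests printed here are unpaired, with the block as an alternative. The possible pairing comes from this check of the values and not from the labels.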

Additional observations from a re-analysis of the deposited data

How the results depend on the processing

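No alternative called any of the 9 CaM kinase genes. Camk2g kept its direction under all 18 alternatives (-0.39 to -0.27, adjusted p 0.144 to 0.979), as did Camk4 (-0.26 to -0.10, adjusted p 0.246 to 0.979), Camkv (-0.29 to -0.15) and Camk2d (-0.70 to -0.10). With the replicate number as a block edgeR called 0 genes, as without it, the CaM kinase log2 fold changes ran from -0.34 to 0.18 and no call changed. In edgeR 0 genes were called with all samples (885 lower and 734 higher at an unadjusted p under 0.05) and 0 to 2 with 1 sample left out, the 2 being without Snhg11-ASO replicate 1. DESeq2 called 258, and 347, 275 and 223 without Snhg11-ASO replicates 1, 2 and 3. DESeq2 also called Snhg11 (-2.12), and did so without those replicates (-2.57, -1.94 and -1.96). Directions reversed when 1 sample was left out for Camk2a (-0.20 to 0.12), Camk2b (-0.09 to 0.24), Camk1d (-0.12 to 0.13), Camkk1 (-0.01 to 0.31) and Camkk2 (-0.15 to 0.01). In DESeq2 without Snhg11-ASO replicate 1 the values were -0.04 for Camk2b, -0.01 for Camkk1 and 0.01 for Camkk2, and without replicate 3 they were 0.05 for Camk2a and 0.10 for Camk1d. The span correction moved Camk1d to 0.17, and to 0.18 with the replicate block. For the difference in the Camk2a share, 0.0459 points, raw counts gave -0.0433, the longest transcript -0.0657 and leaving out 1 sample -1.3 to 0.778. The median over the 9 CaM kinase genes ran from -0.15 to -0.02, that of calmodulins from -0.20 to -0.05 and that of calcineurin from -0.01 to 0.13. The median of the other CaM kinase family ran from -0.02 to 0.12 with 1 sample left out and was 0.12 in DESeq2 without Snhg11-ASO replicate 3. That of CaMKII partners was 0.04 after the span correction and 0.05 with the block added. That of CREB-responsive genes ran from 0.20 to 0.71 with 1 sample left out and was 0.20 in DESeq2 without Snhg11-ASO replicate 1. The cause of these moves was not tested, beyond the samples left out.

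The lowest count of any CaM kinase gene in a sample was 1262. With 3 mice per group, the SEs of the log2 fold changes ran from 0.09 for Camk4 to 0.37 for Camk2d. What set these SEs was not tested. The lowest end of any interval was -1.17, for Camk2d, and the highest end was 0.60, for Camkk1. For each gene, differences within its own interval remained compatible with its values. The interval of Camk2g (-0.57 to -0.11) held negative values only, before any adjustment for the number of genes. Counts per gene do not tell splice forms apart, and neither protein nor phosphorylation was measured.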
